A study of Macaca mulatta with 12 samples.

Results

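The opioid genes examined were the precursor genes PDYN (prodynorphin), PENK (proenkephalin) and PNOC (prepronociceptin) and the receptor genes OPRM1 (mu), OPRK1 (kappa), OPRD1 (delta) and OPRL1 (the nociceptin receptor). All probe sets with 1 of these 7 symbols as their only symbol in the platform's probe table were taken, which gave 7 of the 8221 genes so named and 9 of the 12625 probe sets on the array, 3 for precursors and 6 for receptors, with 3 of them for OPRM1. PDYN was singled out because it reads lower on progesterone-treated arrays, so its values in comparisons that set progesterone against no progesterone are a description and were not tested.

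The dorsal raphe nucleus, a midbrain source of serotonin fibres to the forebrain, was taken from 12 female rhesus macaques that had carried Silastic capsules under the skin for 1 month. The groups were estrogen plus progesterone, progesterone alone, estrogen alone and placebo, with 3 monkeys per group and 1 array per monkey. Labels of the placebo arrays carry the code OVX for ovariectomy, while labels of the hormone groups name only the hormone and give no dose, steroid species or age. The progesterone-only arrays have codes of the combined group (EP1 to EP3) in their titles but P1 to P3 as source names, and the source names were followed. RNA of the macaque was read with probes designed for human transcripts, so each intensity also reflects how well the probes match. Groups are compared within a probe set, apart from sums over marker genes. A level set beside array controls or other probe sets of the array is only a rough guide.

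Opioid peptides are cut from large precursor proteins in secretory granules and released from neurons. Dynorphins, the products of PDYN, act mainly on the kappa receptor, enkephalins from PENK on the delta and mu receptors, and nociceptin from PNOC on OPRL1. All 4 receptors couple to inhibitory G proteins, which open potassium channels, close calcium channels and lower cyclic AMP. In rodents, dynorphin acting on kappa receptors in the raphe lowers serotonin neuron activity and serotonin release, and in the hypothalamus of the ewe dynorphin neurons carry part of the feedback of progesterone on reproductive hormone release.

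The arrays had a median intensity between 74.2 and 87.1 and a trimmed mean of 200.1 each, and Spearman correlations between arrays were 0.910 to 0.967. Array 1 of the combined group and array 1 of the estrogen group stood apart: their 28S ribosomal RNA control read 1354 and 841, against at most 182 on the other 10 arrays, and GAPDH probes at the 3' end gave 2.05 and 2.45 times the signal of those at the 5' end, and at most 1.46 times on the others. Both came from estrogen-treated monkeys, and 4 other estrogen-treated monkeys did not show it. Actin probes did not set these arrays apart. Their 3' over 5' ratios were 1.11 and 1.12 there, in the same order, and 1.03 to 1.75 on the other 10 arrays. The serotonin transporter SLC6A4 (220 to 495) and the serotonin neuron transcription factor FEV (104 to 289) were read on every array, while TPH1 read at most 3.60 and TPH2 was not analysed here. Array controls for 8 mouse and yeast transcripts, which have no intended target in this RNA, read between 1.54 and 87.9 with a median of 18.7 over 96 readings.

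PDYN read lowest with both hormones, higher with progesterone alone, higher again with estrogen alone and highest with placebo. Its intensity was 20.8, 24.4 and 23.5 on the 3 arrays of the combined group. It was 63.3, 35.0 and 27.3 with progesterone alone. With estrogen alone it was 55.0, 79.6 and 92.4, and with placebo it was 124, 94.3 and 55.8. All combined-group readings lay under every reading of the other groups, whereas progesterone array 1, at 63.3, lay above placebo array 3 and estrogen array 1. Over the 6 arrays with progesterone the readings ran from 20.8 to 63.3 with a median of 25.9, and over the 6 arrays without it from 55.0 to 124 with a median of 86.0. The mouse and yeast controls had medians of 19.6, 25.3 and 18.2 on the arrays of the combined group and 50.7 on estrogen array 1. PDYN was thus at the level of these controls on those 4 arrays, and near it on progesterone array 3 (27.3 against a control median of 24.8), and how much transcript it had there cannot be read from the intensities. On the placebo arrays the control medians were 14.0, 9.37 and 11.1, under PDYN.

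**Figure D1:**
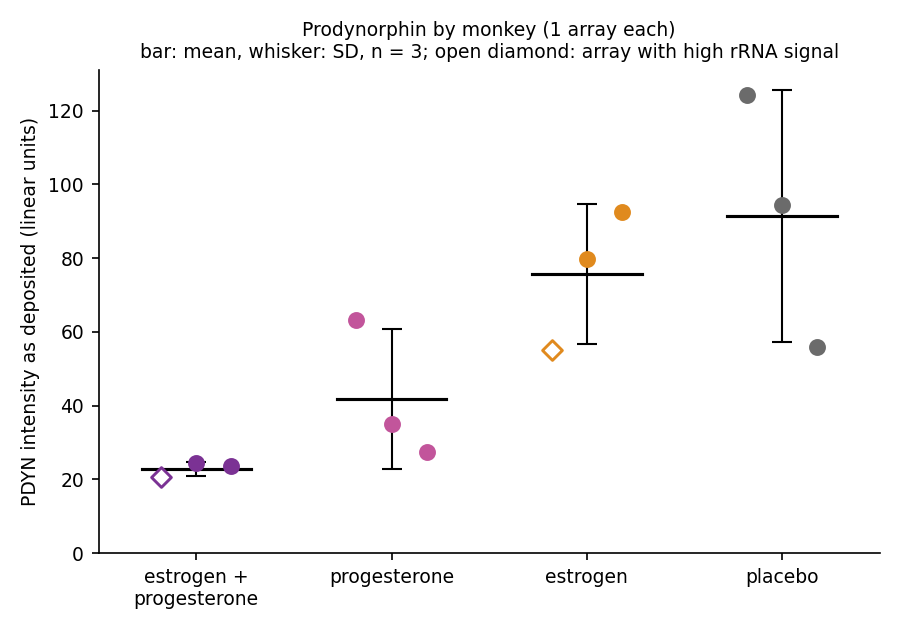
PDYN intensity as deposited (vertical axis, linear units from 0) in each of the 12 monkeys by group, with bars for the mean and whiskers for the SD of 3 arrays; open diamonds are the 2 arrays with high ribosomal RNA signal. The combined group sits between 20.8 and 24.4, under all other readings, while the progesterone-alone group spans 27.3 to 63.3 and overlaps the estrogen and placebo groups.

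The same order was seen in the position of PDYN among all probe sets of its own array, which does not depend on scaling between arrays. PDYN stood at percentiles 19.8 to 26.1 with both hormones and 27.5 to 44.6 with progesterone alone. It stood at percentiles 38.8 to 54.8 with estrogen alone and 42.0 to 61.7 with placebo. PDYN was thus near the middle of the array in placebo animals and in the lower part of it with both hormones.

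For the size of each difference, quantile-normalized log2(intensity + 8.26) was fitted with limma over the 4 groups. The fit left out the dimmest 40% of probe sets by mean level and kept 7535, among them 5 of the 9 opioid probe sets (PDYN, PENK, PNOC, OPRL1 and 1 of OPRM1). PDYN stood at percentile 40.2 of mean level, barely above that filter, and it dropped under it when any 1 of its 6 highest arrays was left out. It thus passed through the arrays where it was high, while its estimates are the same with no filter. Against placebo, PDYN was −1.66 ± 0.34 (SE) log2 units with both hormones, a ratio of mean intensities of 0.251, and −1.03 ± 0.34 with progesterone alone, a ratio of 0.458. Against estrogen alone, it was −1.41 ± 0.34 with both hormones, a ratio of 0.303. Averaged over both estrogen states, arrays with progesterone minus arrays without it gave −1.22 ± 0.24 (n = 6 each), with mean intensities of 32.4 ± 15.9 and 83.6 ± 26.2 (SD).

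Of the 7535 fitted probe sets, 0 had a lower estimate than PDYN for both hormones against placebo and 0 for both hormones against estrogen. For the average effect of progesterone 1 had a lower one, and for progesterone alone against placebo 51 had. Groups did not overlap on the lower side for PDYN in both hormones against placebo, as for 4.18% of fitted probe sets, and in both hormones against estrogen, as for 2.63%. These contrasts chose the gene, so the ranks describe it and support nothing further.

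Tests for PDYN were made on the contrasts that the choice did not use, with the limit that PDYN entered the fit through its high arrays. Estrogen added to progesterone gave −0.63 ± 0.34 (SE), with readings of 20.8 to 24.4 in the combined group and 27.3 to 63.3 with progesterone alone. The groups did not overlap, as for 7.82% of fitted probe sets on the lower side, but the difference did not pass (limma adjusted p = 0.682, 95% interval −1.37 to 0.10). Estrogen alone against placebo gave −0.26 ± 0.34 (adjusted p = 0.9999, interval −0.99 to 0.48), with overlapping readings of 55.0 to 92.4 and 55.8 to 124. Its sign turned with array weights (0.11), and it lay at 6.3e-05 when the pair of high ribosomal signal was left out, and at 0.0057 without placebo array 1 in a fit with no filter. The average effect of estrogen was −0.45 ± 0.24 (adjusted p = 0.853, interval −0.97 to 0.08). The interaction, which asks whether progesterone's difference was larger in the presence of estrogen, was −0.38 ± 0.48 (adjusted p = 0.989, interval −1.42 to 0.67). In the order of PDYN levels, both hormones and progesterone alone, and estrogen alone and placebo, were thus not shown to differ, and progesterone alone and estrogen alone overlapped and were not tested against each other. All combined-group arrays and estrogen array 1 read PDYN at the level of the mouse and yeast controls. These tests therefore cannot decide whether the amount of PDYN transcript differed.

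The 2 arrays with high ribosomal signal held the lowest PDYN reading of their own group in each case. Without them the combined group averaged 24.0 and the estrogen group 86.0 (n = 2 each). The average effect of progesterone was then −1.30, against −1.22 over all arrays.

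PENK, the enkephalin precursor, was read far above the mouse and yeast controls on every array. It read 571, 862 and 990 with both hormones, 812, 525 and 679 with progesterone alone, 567, 774 and 1038 with estrogen alone, and 664, 807 and 897 with placebo. The groups overlapped throughout, and the highest and lowest of the 12 readings came from the estrogen and progesterone groups. Both arrays of high ribosomal signal gave the lowest PENK reading of their group. The average effect of progesterone on PENK was −0.10 ± 0.18 (limma adjusted p = 0.977, 95% interval −0.50 to 0.31) and that of estrogen 0.11 ± 0.18 (adjusted p = 0.958). A difference of the size read for PDYN lies outside the interval for progesterone.

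PNOC, the nociceptin precursor, varied widely between monkeys of the hormone groups. Readings were 82.8, 330 and 332 with both hormones, 115, 350 and 225 with progesterone alone, 361, 236 and 66.4 with estrogen alone, and 237, 233 and 224 with placebo. The combined and estrogen groups each held 1 reading far under their others, while the progesterone readings were spread more evenly. Placebo readings differed by little, with a coefficient of variation of 2.97% against 57.7%, 51.0% and 66.8% with both hormones, progesterone and estrogen. The low reading of the combined group and the high one of the estrogen group were those of the arrays with high ribosomal signal, and without the first the combined group read 330 and 332. The difference in spread was not tested. The average effect of progesterone was 0.02 ± 0.44 (limma adjusted p = 0.998), with an interval of −0.93 to 0.97 that leaves room for a near doubling in either direction.

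OPRL1, the receptor for nociceptin, read 264, 131 and 189 with both hormones, 177, 102 and 194 with progesterone alone, 303, 188 and 184 with estrogen alone, and 139, 206 and 202 with placebo. Its 2 highest readings were on the arrays with high ribosomal signal. The average effect of estrogen was 0.27 ± 0.21 (limma adjusted p = 0.908) and that of progesterone −0.23 ± 0.21 (adjusted p = 0.933), and the groups overlapped in each comparison.

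OPRM1, the mu receptor targeted by morphine and by enkephalin and beta-endorphin, had 3 probe sets with different readings. The first, the only fitted one, read 65.1, 61.7 and 53.0 with both hormones, 51.4, 97.6 and 64.8 with progesterone alone, 129, 40.8 and 37.8 with estrogen alone, and 62.2, 60.7 and 76.0 with placebo. Its highest reading was on estrogen array 1, the array with high ribosomal signal. The average effects were 0.00 ± 0.23 for progesterone (limma adjusted p = 0.99998) and −0.18 ± 0.23 for estrogen (adjusted p = 0.943).

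The second OPRM1 probe set read higher with hormones than with placebo but lay at percentile 30.2 of mean level, below the filter. It read 43.4, 41.7 and 36.0 with both hormones, 54.5, 40.3 and 52.5 with progesterone alone, 19.9, 41.6 and 41.0 with estrogen alone, and 12.3, 20.3 and 9.92 with placebo. Of the 9 hormone arrays, all but estrogen array 1, at 19.9, lay above the highest placebo reading. The medians of the mouse and yeast controls per array were 13.5 to 50.7 on the hormone arrays and 9.37 to 14.0 with placebo, so they overlapped. Among the hormone arrays the highest control median (50.7) was on estrogen array 1. The lowest were 13.5 on estrogen array 3 and 14.5 on progesterone array 1, where the probe set read 41.0 and 54.5. The placebo readings lay about as low as the controls of the placebo arrays, and the part of background in the difference was not tested. In a fit without the filter the differences from placebo were 1.303 ± 0.307 with progesterone (limma adjusted p = 0.338), 1.06 ± 0.31 with both hormones (adjusted p = 0.9998) and 0.81 ± 0.31 with estrogen (adjusted p = 0.999), so none passed. The progesterone and combined groups did not overlap with placebo, as on the higher side for 8.54% and 4.63% of all probe sets.

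The third OPRM1 probe set, made from the same transcript record as the first, was almost dark. It read between 0.873 and 12.8 and lay under the offset of 8.26 on 9 of 12 arrays. Its 3 readings above the offset were 12.8 and 8.53 on arrays 1 and 2 of the combined group and 11.9 on progesterone array 3. The highest was on an array with high ribosomal signal. All 3 lay under the medians of the mouse and yeast controls on those arrays (19.6, 25.3 and 24.8), so they are not read as a pattern of treatment. No change of size can be given for readings under the offset. The 3 probe sets of OPRM1 thus give no single value for the gene.

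OPRK1, the kappa receptor on which dynorphin acts, was also below the filter, at percentile 20.6. It read 27.3, 16.5 and 18.3 with both hormones, 25.7, 18.1 and 21.0 with progesterone alone, 19.6, 13.2 and 19.6 with estrogen alone, and 8.77, 25.8 and 22.3 with placebo. These readings overlapped in all groups and lay around the median of the mouse and yeast controls. Without the filter, the average effect of progesterone was 0.15 ± 0.19 (limma adjusted p = 0.967, 95% interval −0.26 to 0.55). OPRD1, the delta receptor, read between 3.78 and 15.7 and lay under the offset on 10 of 12 arrays; the readings above it were those of the 2 arrays with high ribosomal signal. Differences of these receptors were not detectable at this signal.

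**Figure D2:**
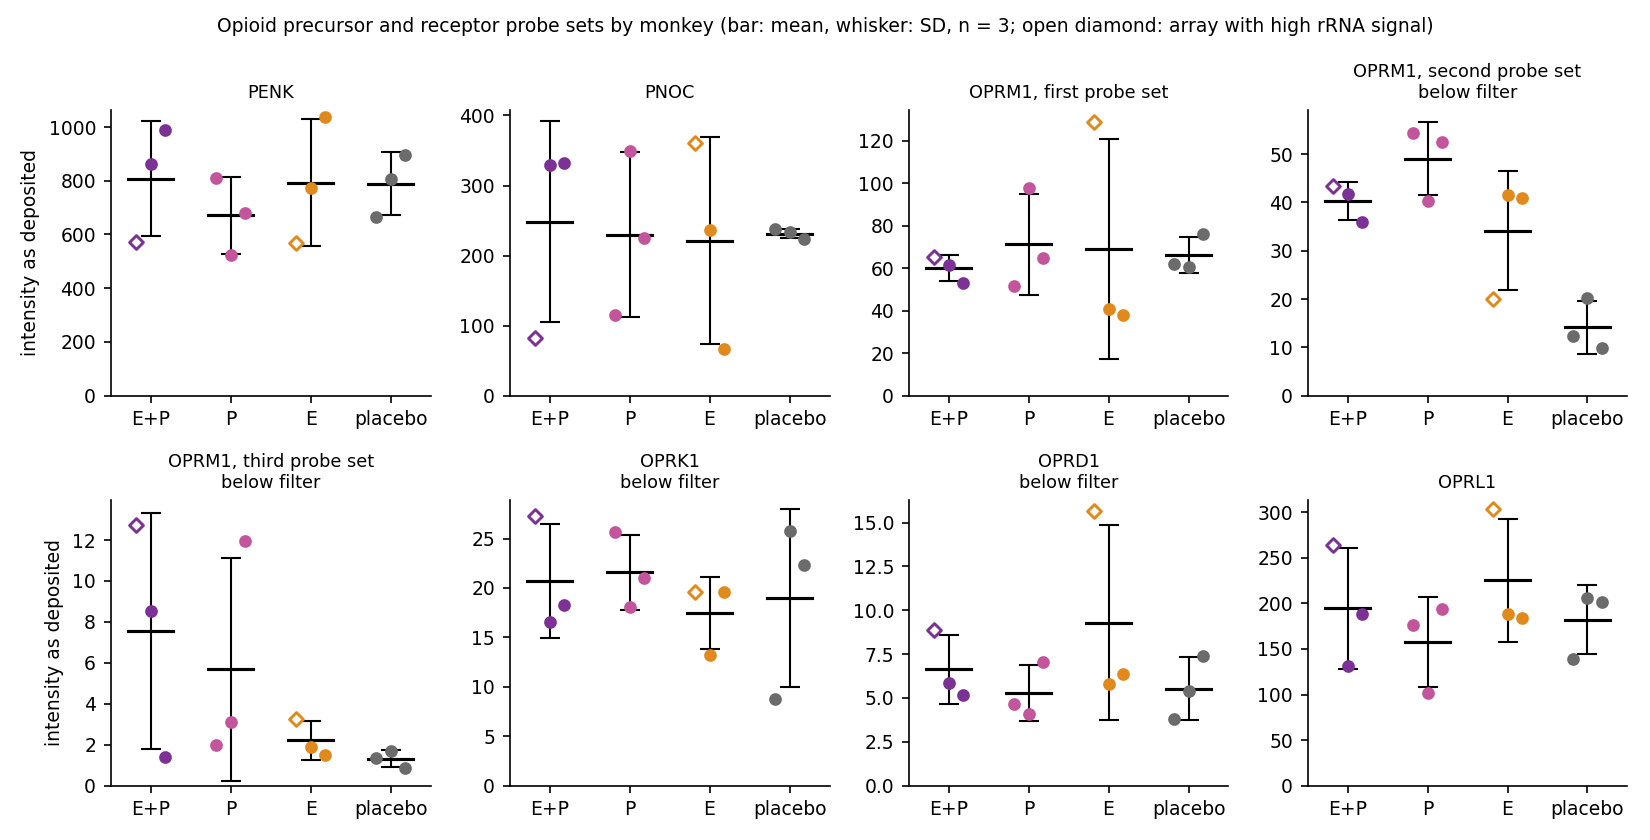
Intensity as deposited (vertical axes, linear units from 0) of the 8 opioid probe sets other than PDYN by group (E+P, both hormones; P, progesterone; E, estrogen), with bars for the mean and whiskers for the SD of 3 arrays; open diamonds are the 2 arrays with high ribosomal RNA signal. PENK and OPRL1 overlap across all groups, PNOC has 1 low reading with both hormones and 1 with estrogen alone, and the second OPRM1 probe set sits between 9.92 and 20.3 with placebo.

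Over all 8 comparisons fitted, 0 of the 4 fitted probe sets other than PDYN passed limma's adjusted threshold of 0.05, and 0 had an unadjusted p under 0.05. At the adjusted threshold the share of all fitted probe sets that passed was 0% for estrogen against placebo, 0.0398% for progesterone against placebo and 0.0133% for both against placebo. It was 0% for both against estrogen, 0.0133% for both against progesterone, 0% for the average effect of progesterone, 0.0133% for that of estrogen and 0% for the interaction. At an unadjusted p under 0.05 these shares were 3.16%, 8.24%, 3.38%, 2.87%, 7.71%, 5.84%, 5.83% and 4.99% in the same order. With so few calls among all probe sets, a count of 0 among 4 does not differ from what the background share gives. Estimates for the 4 ran from −0.23 to 0.02 for the average effect of progesterone, against a median of −0.00020 over all fitted probe sets.

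**Figure D3:**
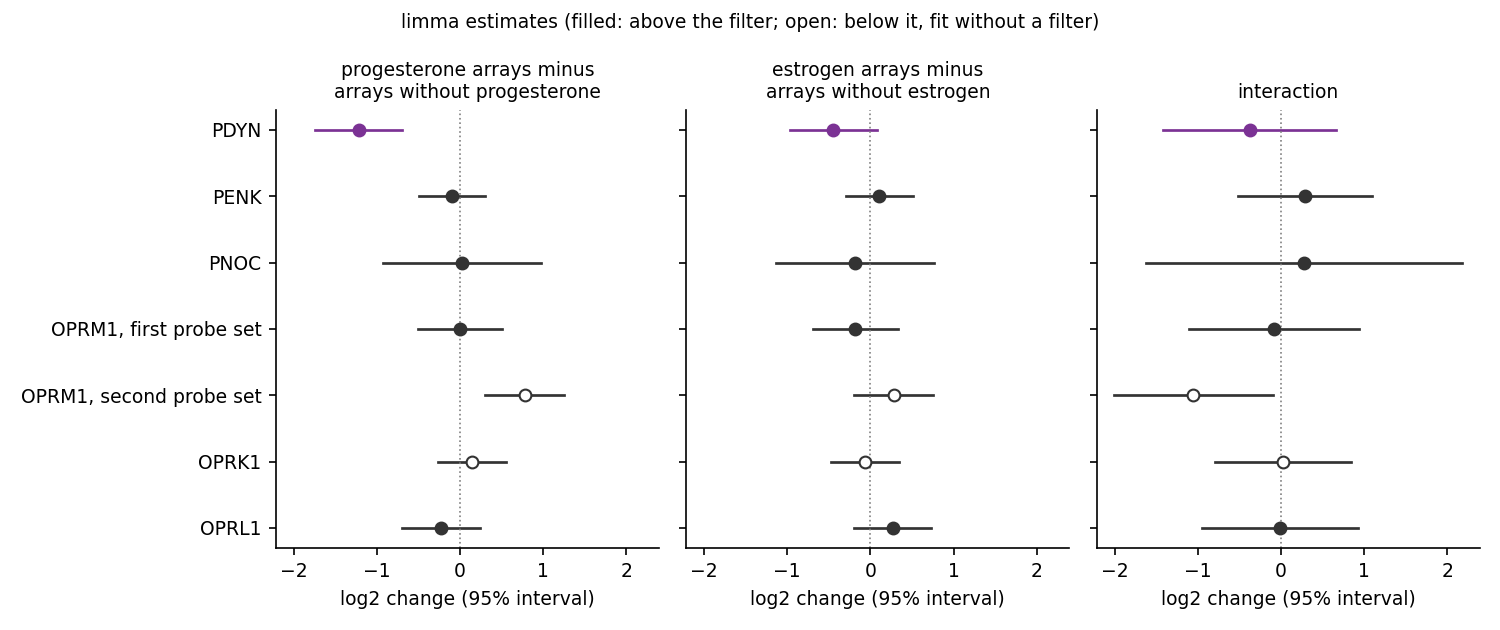
Log2 change (horizontal axes) with its 95% interval from limma for 7 opioid probe sets (OPRD1 and the third OPRM1 probe set, under the offset on most arrays, are left out), for the average effect of progesterone, the average effect of estrogen and the interaction; filled points were fitted above the filter and open points come from the fit without one. PDYN was chosen for the first contrast, so its interval there is a description and not a test. It stands at −1.22 there, while the other filled points lie between −0.23 and 0.02.

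Probe sets that followed PDYN most closely over the 12 arrays, or opposed it most, were looked up. Among 6679 fitted single-symbol probe sets of other genes, the highest Pearson correlations were 0.859 for DNM3, a dynamin of synaptic membranes, 0.851 for ICA1, a protein linked to secretory granules, and 0.846 for OGT, which attaches N-acetylglucosamine to proteins. GRM5, a metabotropic glutamate receptor, followed at 0.845 and PRUNE2 at 0.844. The lowest were −0.835 for KCNAB2, a potassium channel subunit, −0.833 for PLEKHB1 and −0.831 for GAS6, a ligand of receptor tyrosine kinases. These are the extremes of many candidates over 12 arrays that share the group structure, and they are given with no test.

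GRM5 read 240 to 327 with progesterone and 281 to 439 without it. After group means were removed the correlation with PDYN was 0.826 for GRM5, 0.681 for PRUNE2, 0.668 for OGT, 0.657 for DNM3 and 0.630 for ICA1, and −0.782 for GAS6, −0.550 for PLEKHB1 and −0.486 for KCNAB2. The correlation that picked these probe sets already held these deviations, so the values are no separate check and only describe them. Other probe sets of the same genes did not follow PDYN, at 0.335 and 0.06 for GRM5, −0.425 for ICA1 and 0.07 for OGT. Likewise, other probe sets of KCNAB2 (0.257), PLEKHB1 (−0.111) and GAS6 (0.0019 and −0.10) did not oppose it. Correlations of the opioid probe sets with PDYN were 0.221 for PENK, −0.137 for PNOC, −0.06 for OPRL1 and −0.238 for the first OPRM1 probe set. Below the filter they were −0.391 for the second OPRM1 probe set, −0.690 for the third, −0.254 for OPRK1 and −0.145 for OPRD1.

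**Figure D4:**
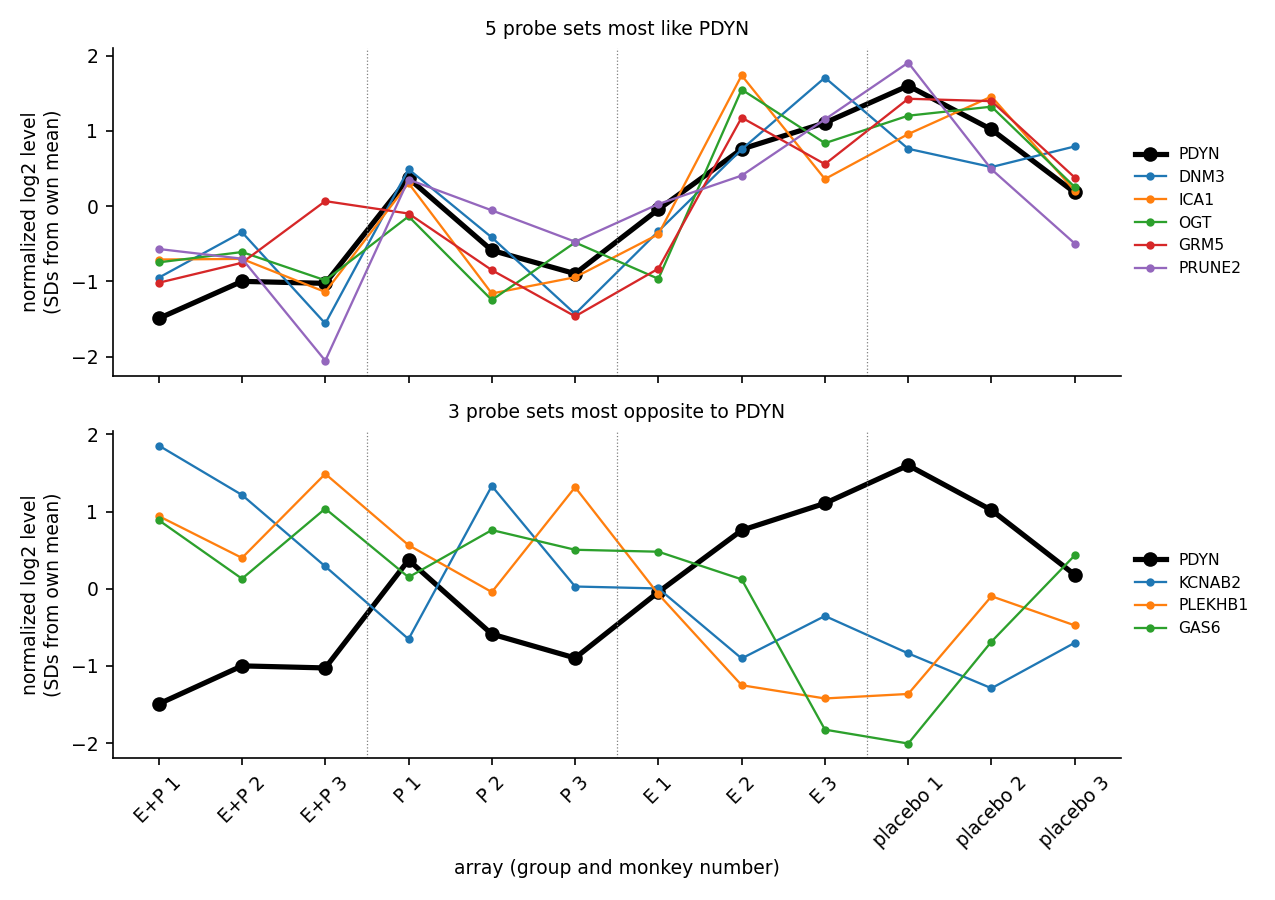
Normalized log2 level in SDs from each probe set's own mean (vertical axes) over the 12 arrays, grouped by treatment, for PDYN (black) with the 5 most similar probe sets above and the 3 most opposite below. The similar probe sets are mostly under their own mean with both hormones and over it on placebo arrays 1 and 2.

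Other genes of the opioid pathway were read from lists of 86 genes, of which 60 had a fitted probe set, each gene taken with its brightest one. None passed limma's adjusted threshold in any of the 8 comparisons, and 1 to 5 of the 60 had an unadjusted p under 0.05. For the average effect of progesterone these were 5 (1 above 0, 4 below), or 8.33%, against 5.84% of all fitted probe sets, and the median of the 60 was 0.01 against −0.00020.

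Genes that cut, amidate and package peptide precursors numbered 11. They had a median of −0.13 for the average effect of progesterone, 3 above 0 and 8 below, and 0 with an unadjusted p under 0.05. PAM, which amidates peptides, read 842 to 1095 with progesterone and 993 to 1310 without it (−0.24 ± 0.12, limma adjusted p = 0.847). SCG2, a secretory granule protein, read 683 to 1205 and 838 to 1220 (−0.30 ± 0.16, adjusted p = 0.870), and the aminopeptidase CTSH gave 0.22. PCSK1 and PCSK2, the main convertases of opioid precursors, were not analysed here.

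Enzymes that break down opioid and other small peptides numbered 9, with a median of 0.10, 8 above 0 and 1 below. The values nearest to a call were 0.21 for the endothelin-converting enzyme ECE2, −0.19 for the prolyl peptidase PREP and 0.19 for ECE1, with adjusted p from 0.885 to 0.940. POMC, the precursor of beta-endorphin, read 84.0 to 151 with progesterone and 53.4 to 167 without it (0.33 ± 0.26, limma adjusted p = 0.913), TMEM97, known as the sigma-2 receptor, gave 0.17 and the opioid growth factor receptor OGFR −0.13.

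Receptor signalling genes numbered 24, with a median of 0.03, 12 above 0 and 12 below. An unadjusted p under 0.05 was seen for 3 of the 24, and for 5.84% of all fitted probe sets. ADCY8, a calcium-stimulated adenylyl cyclase, read 38.9 to 89.0 with progesterone and 68.0 to 121 without it (−0.48 ± 0.17, limma adjusted p = 0.826). KCNJ6, a subunit of the potassium channel that opioid receptors open, read 115 to 323 and 200 to 312 (−0.44 ± 0.17, adjusted p = 0.843). GNB2, a G-protein beta subunit, gave 0.84 ± 0.37 (adjusted p = 0.847) on its brightest probe set and −0.07 on its other.

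Transcription regulators linked to PDYN, with steroid receptors among them, numbered 13, with a median of 0.01, 7 above 0 and 6 below. An unadjusted p under 0.05 was seen for 2 of the 13, CREBBP and ATF2, and for 5.84% of all fitted probe sets. CREBBP, a coactivator of CREB, read 60.8 to 147 with progesterone and 105 to 162 without it (−0.43 ± 0.16, limma adjusted p = 0.826). ATF2, which binds cyclic AMP response elements, gave −0.42 ± 0.18 (adjusted p = 0.843) and −0.18 on another fitted probe set. The glucocorticoid receptor NR3C1 gave −0.22, and −0.13 and −0.10 on its other fitted probe sets. CREB1 itself gave 0.31 and FOS −0.10. The progesterone receptor PGR was below the filter, and KCNIP3, a calcium-dependent repressor of PDYN, was not analysed here.

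Markers of the cell types of the region were read beside PDYN, and 0 of 64 fitted genes passed limma's adjusted threshold in any comparison. At an unadjusted p under 0.05 there were 3 of 64 for the average effect of progesterone and 8 of 64 for progesterone against placebo, with 5.84% and 8.24% of all fitted probe sets at that level. The 3 were SOX9, an astrocyte transcription factor (−0.48, adjusted p = 0.529), the macrophage gene CD68 (0.39, adjusted p = 0.819) and the neuronal gene MAP2 (0.58, adjusted p = 0.847). MAP2 had 3 fitted probe sets, and only the brightest is given. The 8 for progesterone against placebo held 3 astrocyte genes, all lower: SOX9 (−0.80), FGFR3 (−0.52) and GFAP (−0.42). They also held 2 serotonin neuron genes, GATA3 (−0.62) and SLC6A4 (−0.58). The rest were 1 catecholamine and 1 hypothalamic gene, each lower, and CD14 of the microglia and blood list, higher (1.20). Of 10 fitted serotonin neuron genes, 9 were below 0 and 1 above for the average effect of progesterone, with a median of −0.23 and 0 with an unadjusted p under 0.05. Their summed intensity ran from 1312 to 1915 on progesterone arrays and from 1549 to 1924 on the others. By group the sums were 1474 to 1915 with both hormones, 1312 to 1461 with progesterone alone, 1635 to 1879 with estrogen alone and 1549 to 1924 with placebo. The median of these genes against placebo was −0.09 with both hormones and −0.40 with progesterone alone. All 6 fitted catecholamine neuron genes, among them TH, were below 0, with a median of −0.21 and summed intensities of 1464 to 1925 and 1730 to 2886. General neuron markers had a median of −0.0043, 5 above 0 and 6 below, over 11 genes, with sums of 35607 to 42975 and 34024 to 44696. Astrocyte markers had a median of −0.06 over 10 genes, oligodendrocyte markers 0.07 over 8, microglia and blood markers 0.04 over 8 and cerebellar markers −0.12 over 8. Of the hypothalamic peptide genes, AVP read 6.24 to 19.2, PMCH 15.3 to 47.8, OXT 16.7 to 72.7 and HCRT 174 to 306. In whole tissue, fewer cells that express PDYN and less PDYN transcript per cell cannot be told apart, and the part of cell makeup in the PDYN reading was not tested.

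**Figure D5:**
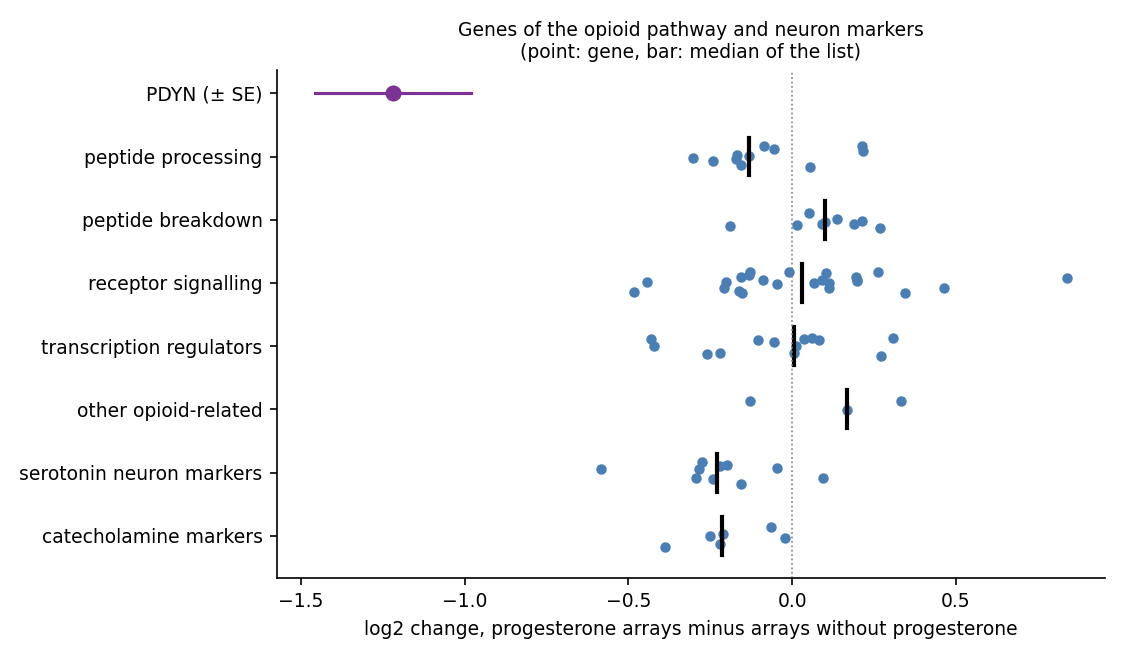
Log2 change for the average effect of progesterone (horizontal axis) of PDYN with its SE and, under it, of each fitted gene in 5 lists of the opioid pathway and 2 lists of neuron markers; short bars are list medians. PDYN stands at −1.22, and the list medians lie between −0.23 and 0.17.

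Genes next to PDYN on the macaque chromosome were looked up in the RefSeq gene order of assembly T2T-MMU8v2.0. Of the 4 nearest protein-coding genes on either side, TGM3, a transglutaminase, gave 0.10 ± 0.12 (limma adjusted p = 0.958) and SIRPA, an inhibitory receptor that binds CD47, gave 0.39 ± 0.37 (adjusted p = 0.940) for the average effect of progesterone. STK35 was below the filter, and the others were not analysed here.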

How the data were processed

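The authors deposited a linear intensity per probe set for 12 arrays; from the values, each array had been scaled to a common trimmed mean with 2% trimmed from each end. The summary method is not given in the sources used here. Gene names follow the platform's probe table; RefSeq synonyms replaced 19 older symbols. The 67 control probe sets were left out of the tests. Intensities were converted to log2(intensity + 8.26), the offset being the pooled 10th percentile, and quantile normalized. The lowest 40% by mean were left out (5023, leaving 7535), and the 4 groups were fitted with limma 3.58.1 (R 4.3.3; lmFit, eBayes, 2-sided, Benjamini-Hochberg over all fitted probe sets). Fold changes on this scale understate changes of dim probe sets. The steps were tested on simulated data, only for changes on progesterone arrays larger than that of PDYN. The simulation thus does not bear on smaller changes. With 3 arrays per group precision is limited, and errors cover animal and array together.

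The genes and lists were chosen with earlier results of these data known. Named genes were all opioid probe sets, up to 3 genes per pathway list by smallest unadjusted p for the average effect of progesterone, and the probe sets most and least correlated with PDYN; CREB1, FOS and the genes beside PDYN were added after their values were seen. Same-numbered arrays of different groups had deviations that correlated between −0.216 and 0.407 (above 0.1 in 5 of 18 pairs), so numbers were not taken as pairs.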

Additional observations from a re-analysis of the deposited data

How the results depend on the processing

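The count of 0 opioid probe sets past the threshold, PDYN aside, held in all 8 comparisons under each of up to 23 alternatives: other normalization, offset, filter, variance model, array weights, replicate block, fewer groups, and fewer arrays. In the comparisons that set progesterone against no progesterone, PDYN's difference kept its sign under every alternative. PDYN was chosen on these contrasts for its low readings, which all but fixed the sign there. Its values under the alternatives in these contrasts are thus a description and no separate check. Of the remaining comparisons, PDYN's difference kept its sign under every alternative in all except estrogen against placebo. That one turned to 0.11 with array weights and to 6.3e-05 without both arrays of high ribosomal signal. With both hormones against placebo it shrank to −1.16 with an offset of 32, which compresses low readings. The average effect of estrogen was −0.17 with array weights, and −0.26 when the pair of high ribosomal signal was left out. PDYN fell under the filter when any 1 of its 6 highest arrays was left out (the placebo arrays, estrogen arrays 2 and 3 and progesterone array 1), with an offset of 1 and with the lowest 60% left out, so each array was also left out with no filter, an alternative chosen after seeing the data. Leaving out 1 array then gave −0.55 to 0.0057 for estrogen against placebo (the sign turned without placebo array 1), −1.33 to −0.77 for progesterone against placebo, −1.96 to −1.41 for both against placebo, −1.68 to −1.21 for both against estrogen, −0.84 to −0.34 for both against progesterone, −1.37 to −1.09 for the average effect of progesterone, −0.59 to −0.30 for that of estrogen and −0.64 to −0.08 for the interaction. With the replicate block PDYN's average effect of progesterone was −1.22, and the block changed no call. The second OPRM1 probe set gave 0.78 to 1.67 for progesterone against placebo over 20 alternatives, chosen after seeing the data, with limma adjusted p from 0.0601 to 0.674.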
